A study of Mus musculus with 6 samples.

Results

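The 32 genes described here make ribosomes or feed growth: they encode MYC, MYCN and their partner MAX, proteins of the nucleolus, subunits of RNA polymerase I, and enzymes of polyamine and nucleotide synthesis. They were listed by symbol, and all 32 had a row among the 19086 genes of the deposited expression table. Ribosomes are built in the nucleolus, where RNA polymerase I transcribes the ribosomal RNA precursor, small nucleolar RNPs guide its chemical modification, and assembly factors cut it and join it to ribosomal proteins. MYC pairs with MAX, binds E-box sequences in DNA and is known for activating many of these genes in growing cells. Adult haematopoietic stem cells (HSCs) divide rarely in undisturbed marrow, and a low rate of protein synthesis is among their known features in mice.

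RNA sequencing was carried out on HSCs of C57BL/6 background, sorted by CD150 (present) and CD48 (absent) within the LSK fraction, which lacks lineage markers and carries Sca-1 and Kit. The cells were taken from lethally irradiated CD45.1 recipients 2 months after a transplant of CD45.2 bone marrow, so transplantation and irradiation of the host are shared by both groups. The 3 control libraries came from marrow of Zfp521fl/fl donors, which carry floxed alleles of the zinc finger gene Zfp521. The other 3 came from marrow of Zfp521-CKO donors, a conditional deletion of Zfp521. For the Cre driver, the deleted part of the gene and any pooling of recipients, no detail is given in the sources used here. Whether each library is a separate recipient is not stated either, so the p-values rest on the spread among the 6 libraries, and that spread may be technical. The comparison asks how genes of ribosome synthesis and MYC targets differ between HSCs of the donor genotypes.

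The libraries differed in depth and in kind. Whole reads recovered from the values came to between 3117648 and 55798660 per library, a 17.9-fold range, and the deepest and the shallowest libraries both carry the label Zfp521-CKO. Zfp521 itself had 0, 3 and 0 reads in the controls, compared with 1519, 126 and 0 in those carrying the label Zfp521-CKO, replicates 1, 2 and 3. The targeted gene therefore goes against the label in replicates 1 and 2, and directions below are those of libraries as labelled. These libraries are therefore called CKO-labelled replicates 1, 2 and 3, as their label alone states. Of 10 HSC markers, 6 had reads in each control and 10, 9 and 9 in the CKO-labelled libraries. Procr and Slamf1, the genes of the HSC surface proteins EPCR and CD150, had no reads in any control, and Slamf1 had none in CKO-labelled replicates 2 and 3. In bulk samples, fewer cells of a type and less RNA per cell cannot be told apart.

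Detection of the 32 genes differed from library to library. Of the 32, 25, 17 and 21 had reads in control replicates 1, 2 and 3, and 32, 28 and 22 in CKO-labelled replicates 1, 2 and 3. As shares these were 78.1%, 53.1% and 65.6% in the controls, compared with 100%, 87.5% and 68.8% in the CKO-labelled libraries, beside 32.1% to 52.9% and 33.8% to 87.4% for all genes. The share of the listed genes was thus above that of all genes in every library, and both shares were highest in the deepest libraries. The order was not that of depth: the shallowest library, CKO-labelled replicate 3, held 22 of the genes, more than control replicates 2 and 3. At the depth of that library, the expected number was 23.6, 15.7 and 20.0 in the controls, compared with 32 and 27.2 in CKO-labelled replicates 1 and 2. Reads in all 6 libraries were found for 14 of the 32 genes (43.8%), compared with 16.5% of all genes. These were Myc, Ncl, Npm1, Fbl, Nop56, Nop58, Dkc1, Nolc1, Wdr43, Wdr12, Nip7, Gnl3, Odc1 and Srm. At the other end, Cad, Nop2 and Utp20 had reads in 1 library only, CKO-labelled replicate 1.

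**Figure D1:**
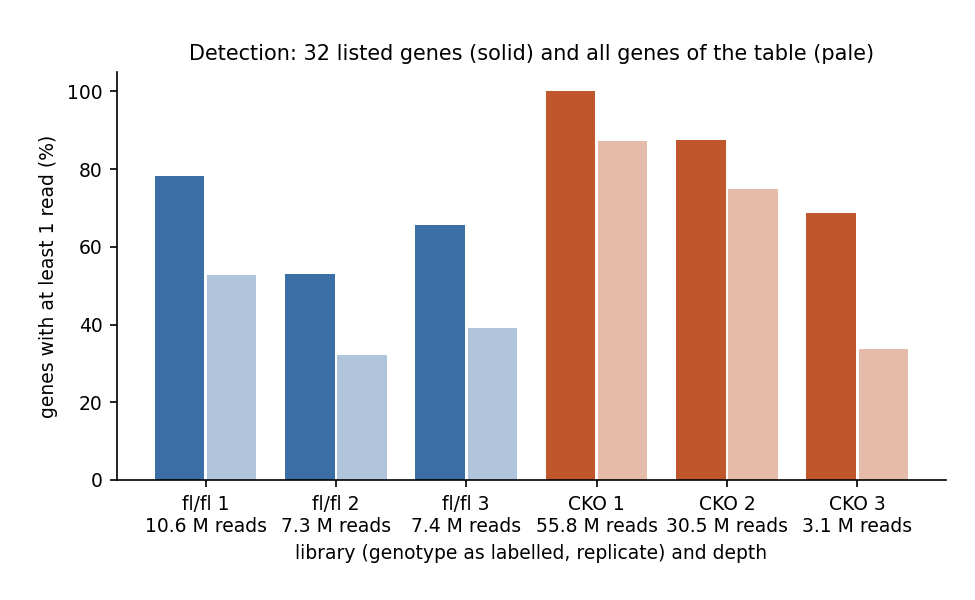
Share of genes with at least 1 read in each library, for the 32 listed genes (solid bars) and all genes of the table (pale bars), with controls in blue and CKO-labelled libraries in orange. The share of listed genes runs from 53.1% in fl/fl 2 to 100% in CKO 1 and lies above the share of all genes in each of the 6 libraries.

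Values are log2(normalized count + 1), in which the count is divided by a factor per library and not by gene length, so they compare a gene between libraries and not genes with each other. A count of 0 allows up to 3 reads, which is a log2 value of 2.07, 2.74 and 2.80 in control replicates 1, 2 and 3 and of 0.57, 0.95 and 3.96 in CKO-labelled replicates 1, 2 and 3. The floor accounts for counting error and for nothing else. Whether PCR copies of 1 molecule were counted as separate reads is not stated.

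**Figure D2:**
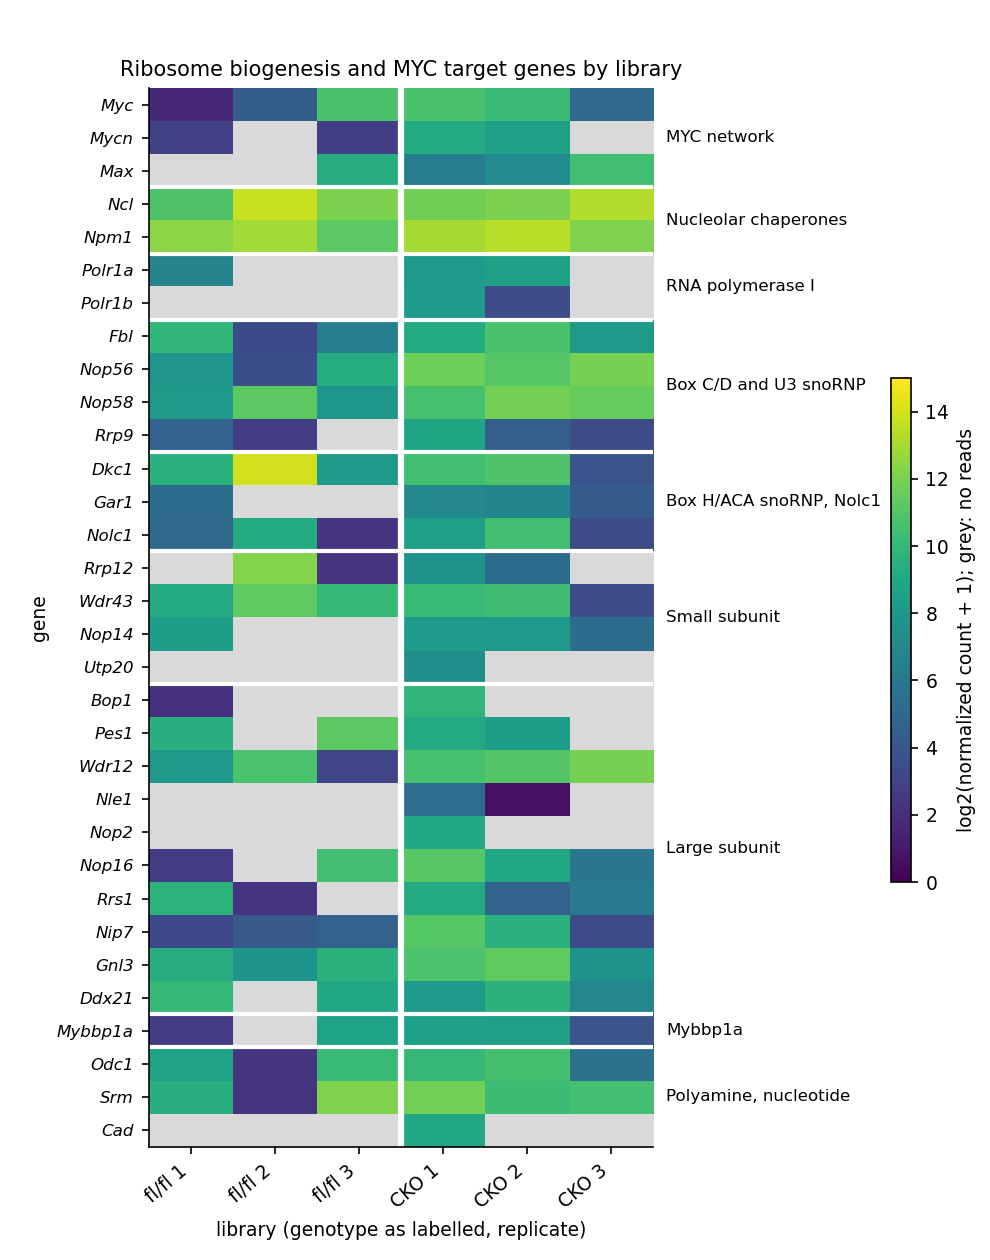
Log2(normalized count + 1) of each of the 32 genes (rows, grouped by role) in each library (columns), with grey cells for genes without reads. Ncl and Npm1 are bright in all 6 columns, between 10.83 and 13.74, while most other rows change between columns of the same label.

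No gene of the set passed the test between genotypes as labelled, and most estimates were positive with wide intervals. Of the 32 genes, 28 (87.5%) had a higher mean in the CKO-labelled libraries and 4 a lower one, while 73.6% of the 16436 genes tested had a higher mean. The median difference was 2.86 log2 units over the 32 genes and 1.63 over all genes tested. Without CKO-labelled replicate 1 the medians were 1.62 and 0.65, with 24 of the 32 higher and 5 lower, and over all libraries left out in turn the median of all genes ran from 0.65 to 2.63. With genes absent from a whole group set at 3 reads per library there, the medians were 2.42 and 0.61. By limma with Benjamini-Hochberg adjustment over all genes, 0 of the 32 passed an adjusted p of 0.05, and the background was 0% of all genes. Adjusted p-values of the 32 ran from 0.61 to 0.96. At an unadjusted p under 0.05, 1 of the 32 (3.13%) was higher and 0 lower, where the background was 5.09% higher and 0.493% lower. Groups did not overlap for 1 of the 32, higher as labelled Zfp521-CKO, where the background was 7.17% higher and 2.05% lower. That gene was Nop56. The 95% interval of the difference included 0 for the other 31.

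The count of calls depended on CKO-labelled replicate 3. Without it, limma called 2 of the 32 genes (6.25%), Nip7 and Mycn, both higher, while it called 2509 of all genes, 15.1% of those tested as higher and 0.201% as lower. The share of all genes called either way was 15.3%. With a weight per library, 0 of the 32 were called against a background of 9.93% higher and 0.17% lower. With quantile normalization 5 genes of the table were called higher and 12 lower, none of them among the 32. With voom on the recovered reads, 0 of the 32 were called against 0.894% and 0.0852%.

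Restricting the set to the 14 genes that every library detected left a smaller median. These 14 had a median difference of 2.06 log2 units, and 12 of the 14 were higher in the CKO-labelled libraries. Detection in every library did not keep them off the floor of 3 reads. Myc, Odc1 and Srm each had 2 reads in 1 control. Dkc1, Wdr43 and Nip7 had 3, 2 and 2 in CKO-labelled replicate 3. Nolc1 had 2 there and 2 in Zfp521fl/fl replicate 3. The median of the 14 thus still rests in part on values at the floor. The 3065 genes of the table with reads in all 6 libraries, without the 75 rows around values off the read scale, had a median difference of 0.04, and 51.2% of them were higher. Leaving out 1 library at a time, the median of the 14 ran from 1.10, without Zfp521fl/fl replicate 2, to 3.18, without CKO-labelled replicate 3. These medians are descriptions, since the genes were chosen with earlier results of these data known.

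**Figure D3:**
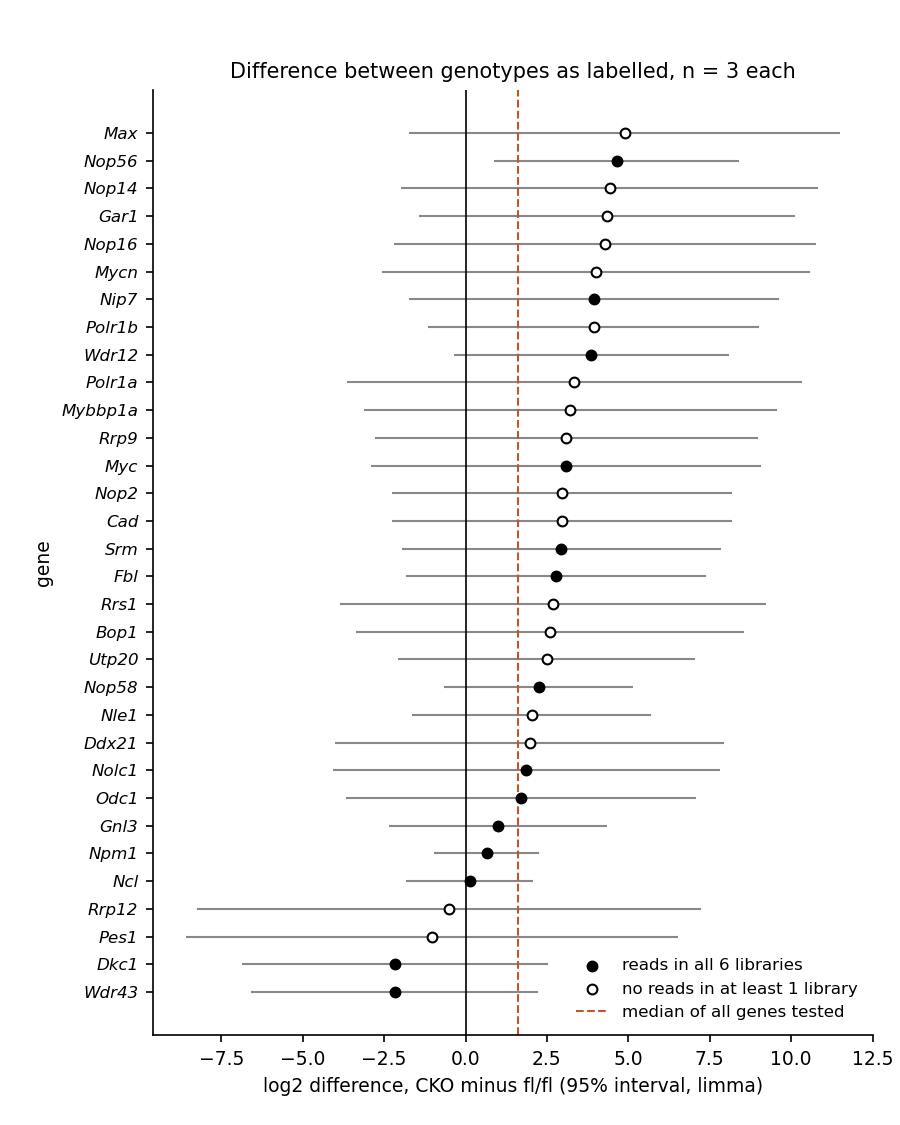
Log2 difference of each gene between CKO-labelled libraries and Zfp521fl/fl (points, 3 libraries each) with its 95% interval from limma (bars). The dashed line is the median of all genes tested, 1.63. Only the interval of Nop56 lies above 0, from 0.87 to 8.41.

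Myc, which encodes the transcription factor of the set's name, was high in 3 libraries and low in 3, across the labels. The controls gave log2 values of 1.64, 4.45 and 10.67 in replicates 1, 2 and 3 (2, 11 and 822 reads). Values of 10.67, 10.23 and 5.13 were found in CKO-labelled replicates 1, 2 and 3 (10135, 3863 and 7 reads). The highest control equalled the highest CKO-labelled library to 2 decimals, so the groups overlapped over most of their range (means 5.59 ± 4.62 and 8.68 ± 3.08, SD, n = 3 each; difference 3.09, limma adjusted p = 0.67). Mycn, a family member that HSCs of the mouse are known to express, was at 2.88, 0 and 2.80 in the controls versus 9.21, 8.51 and 0 in the CKO-labelled libraries. CKO-labelled replicates 1 and 2 held 3670 and 1164 reads of Mycn, and no other library held more than 6. Its difference was 4.01 ± 2.99 (SE, limma adjusted p = 0.67), and 6.96 without CKO-labelled replicate 3 (adjusted p = 0.041).

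Max, which encodes the partner through which MYC proteins bind DNA, followed another pattern. Its values were 0, 0 and 9.34 in the controls, compared with 6.31, 7.26 and 10.44 in the CKO-labelled libraries. The library with the highest Max value, CKO-labelled replicate 3, was the one of that label with the lowest Myc value and with no Mycn reads. The difference of Max was 4.89 ± 3.01 (SE, limma adjusted p = 0.62).

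The E-box bound by MYC and MAX dimers, CACGTG, was searched in RefSeq promoter windows (build GRCm38.p6) from 250 bases before to 50 bases after each start. The letters read the same on both strands. Windows were matched by symbol for 25 of the 32 genes, and 7 of the 25 (28.0%) held the motif, compared with 11.5% of the 10472 genes of the deposited table that have a window and 8.09% of all 27025 genes with a window. The other form CACGCG, searched on both strands, was in 7 of the 25 (28.0%), against 18.9% and 10.5%. For CpG, the window with the most CpG was taken for each gene. The 25 genes and the genes of the table were about as rich, with medians of 22 and 21. The median of all genes with a window was 8. A match is a run of letters and not a measured binding site. The 32 genes were listed in part as MYC targets, so their share of the motif is not independent of how they were chosen. The 30 bases that hold each CACGTG are given below, 5′ to 3′ on the strand of the gene, with the motif in capitals, since it is the letters that these 7 genes share.
Nop2, chr6:125131811-125131840, + strand: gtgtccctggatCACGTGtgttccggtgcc
Max, chr12:76962234-76962263, - strand: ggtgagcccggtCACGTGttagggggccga
Pes1, chr11:3963965-3963994, + strand: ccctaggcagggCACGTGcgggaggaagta
Wdr43, chr17:71616220-71616249, + strand: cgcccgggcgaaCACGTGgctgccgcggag
Nle1, chr11:82908355-82908384, - strand: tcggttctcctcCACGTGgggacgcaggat
Utp20, chr10:88826765-88826794, - strand: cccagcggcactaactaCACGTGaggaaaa
Mybbp1a, chr11:72441347-72441376, + strand: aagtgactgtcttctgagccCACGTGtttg

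The motif begins 60 bases before the start in Nop2 and 3 before it in Max. In Pes1, Wdr43, Nle1, Utp20 and Mybbp1a it begins at base 3, 18, 24, 38 and 41 counted from the start on the strand of the gene. For Nop2, Max and Mybbp1a, the sequence just after the RefSeq start was not found in a GENCODE transcript of the gene, so their positions rest on RefSeq alone. Among the 25 genes with a window, the 7 with the motif had a median difference of 2.49 log2 units and the 18 without it 3.21, with 5 and 17 of them higher in the CKO-labelled libraries. The 7 genes without a window are Bop1, Fbl, Myc, Npm1, Rrp12, Rrs1 and Srm.

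Ncl and Npm1, which encode the abundant nucleolar proteins nucleolin and nucleophosmin, had the smallest ranges of the set over the 6 libraries. Ncl was at 10.83, 13.74 and 12.06 in the controls versus 11.72, 12.02 and 13.27 in the CKO-labelled libraries. The 3 CKO-labelled values all fell between the lowest and the highest control, and the difference was 0.13 (95% interval -1.82 to 2.08, limma adjusted p = 0.96). Its sign changed in 4 of the alternatives. Npm1 was at 12.39, 12.92 and 11.22 in the controls versus 13.003, 13.37 and 12.12 in the CKO-labelled libraries. CKO-labelled replicates 1 and 2 lay just above every control and replicate 3 inside their range (difference 0.65, 95% interval -0.96 to 2.26, limma adjusted p = 0.69). Npm1 has processed pseudogenes in the mouse genome, and how shared reads were counted is not stated, so its level is uncertain. The Ncl value minus the Npm1 value was between 0.83 and 1.15 in control replicates 2 and 3 and in CKO-labelled replicate 3. It was between -1.56 and -1.28 in the other 3 libraries. Together the pair took 28.9% to 49.97% of the reads of the 32 genes.

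RNA polymerase I, the enzyme that transcribes ribosomal RNA, was represented by its largest subunits. Polr1a, the catalytic subunit, was at 6.71, 0 and 0 in the controls (98, 0 and 0 reads) and at 8.13, 8.60 and 0 in the CKO-labelled libraries (1738, 1240 and 0 reads). Polr1b had no reads in any control and was at 8.29, 3.54 and 0 in the CKO-labelled libraries, from 1946, 34 and 0 reads. Both genes were therefore above every control in CKO-labelled replicates 1 and 2 and without reads in replicate 3. Polr1b was among 5 of the 32 genes (15.6%) with reads in 1 or more CKO-labelled libraries and in no control, and the others were Nle1, Cad, Nop2 and Utp20. Of all genes, 35.6% had reads in this way. Reads in controls only were found for 0 of the 32 and for 3.84% of all genes. Limma adjusted p-values were 0.67 and 0.61 for Polr1a and Polr1b. Mybbp1a, a nucleolar MYB-binding protein tied to RNA polymerase I transcription, was at 2.66, 0 and 8.71 in the controls versus 8.60, 8.47 and 3.96 in the CKO-labelled libraries.

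The box C/D small nucleolar RNPs, which methylate ribosomal RNA, held the gene with the clearest separation. Nop56 (ENSMUSG00000027405), a scaffold protein of these particles, was at 7.81, 3.63 and 9.29 in the controls (211, 6 and 316 reads). It was at 11.67, 11.06 and 11.93 in the CKO-labelled libraries (20335, 6834 and 803 reads). Every CKO-labelled library lay above every control, and the 3 lay within 0.87 log2 units of each other, while the controls spanned 5.66. Means were 6.91 ± 2.94 and 11.55 ± 0.45 (SD, n = 3 each). The difference was 4.64 ± 1.71 log2 units (SE; limma unadjusted p = 0.020, adjusted p = 0.61). The adjusted p lay between 0.16 and 0.75 in the alternatives. As a rate, Nop56 had 19.9, 0.82 and 42.6 reads per 1000000 (RPM) in the controls, compared with 364, 224 and 258 in the CKO-labelled libraries.

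Nop58, the other scaffold protein, was at 8.12, 11.23 and 7.85 in the controls versus 10.63, 11.86 and 11.45 in the CKO-labelled libraries. Zfp521fl/fl replicate 2 lay within the range of the CKO-labelled libraries, so the groups overlapped (difference 2.25 ± 1.32, SE, limma adjusted p = 0.61). Fbl, which encodes the methyltransferase fibrillarin, was at 9.96, 3.39 and 6.40 in the controls versus 9.24, 10.67 and 8.17 in the CKO-labelled libraries (difference 2.78 ± 2.10, limma adjusted p = 0.67). In Zfp521fl/fl replicate 2, Fbl had 5 reads and Nop56 had 6, against 1263 for Nop58. The Nop56 value minus the Nop58 value was -7.60 in that library and between -0.80 and 1.44 in the other 5. Rrp9, a protein of the U3 particle, was at 4.73, 2.74 and 0 in the controls versus 8.81, 4.51 and 3.42 in the CKO-labelled libraries.

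**Figure D4:**
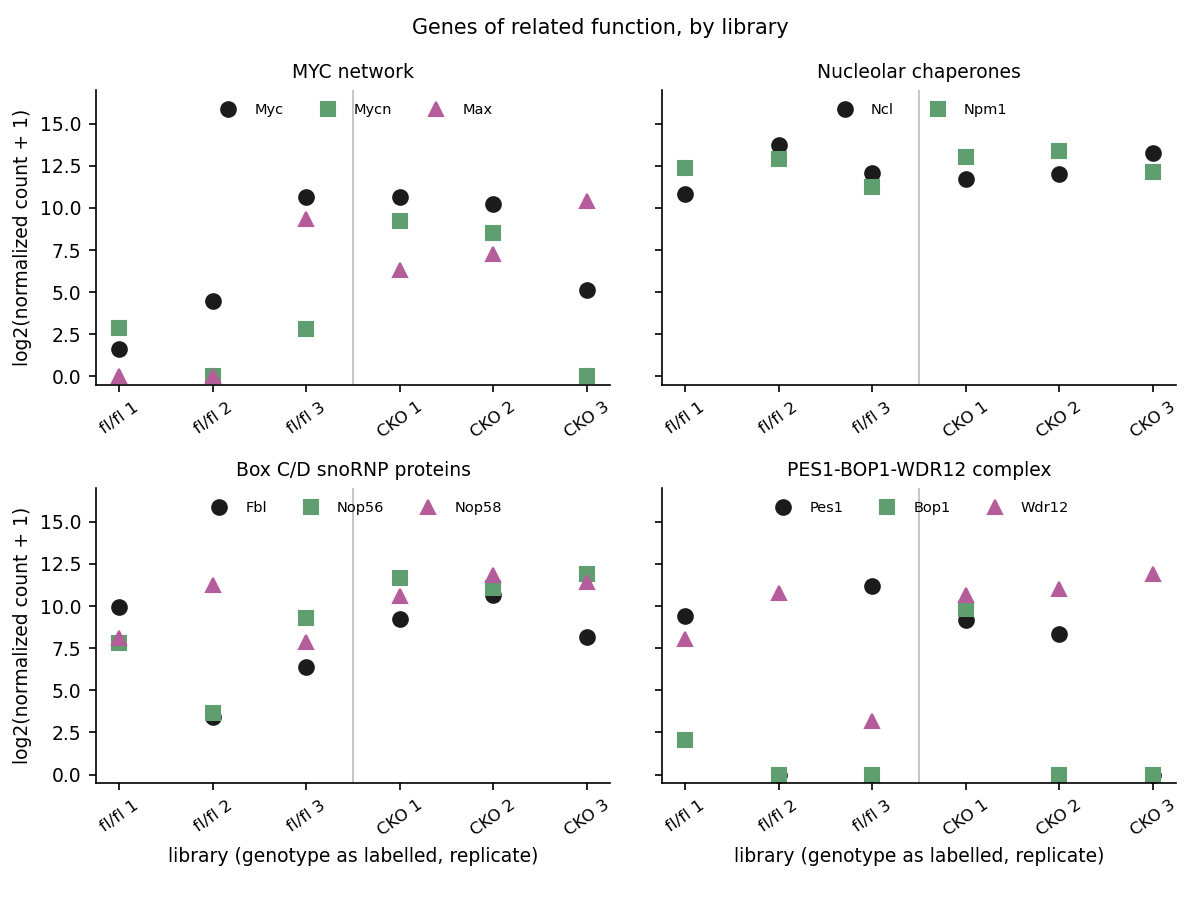
Log2(normalized count + 1) of genes of related function in each library, with controls left and CKO-labelled libraries right of the grey line; a point at 0 has no reads. Ncl and Npm1 stay between 10.83 and 13.74, whereas Nop56 and Nop58 are 7.60 log2 units apart in fl/fl 2 and Bop1 has more than 3 reads in CKO 1 only.

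Among genes of the box H/ACA particles, which convert uridine to pseudouridine, Dkc1 was a gene with a lower mean in the CKO-labelled libraries. Dkc1, which encodes the pseudouridine synthase dyskerin, was at 9.61, 13.95 and 8.20 in the controls versus 10.46, 10.84 and 3.96 in the CKO-labelled libraries. Zfp521fl/fl replicate 2 held 8371 reads of Dkc1, a rate of 1145 RPM, and CKO-labelled replicate 3 held 3 reads. The difference was -2.16 (95% interval -6.86 to 2.54, limma adjusted p = 0.67), and it was 0.066 without CKO-labelled replicate 3. Gar1, another protein of these particles, was at 5.33, 0 and 0 in the controls versus 7.09, 6.90 and 4.35 in the CKO-labelled libraries, where 37 reads in the first control and 4 in CKO-labelled replicate 3 kept the groups from separating. Nolc1, a chaperone of both kinds of particle, was at 5.17, 9.23 and 2.31 in the controls versus 8.44, 10.46 and 3.42 in the CKO-labelled libraries.

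Of the 4 small subunit factors, 2 had a higher and 2 a lower mean in the CKO-labelled libraries. Wdr43, a protein of the small subunit processome, was at 9.15, 11.32 and 10.07 in the controls versus 10.15, 10.42 and 3.42 in the CKO-labelled libraries. CKO-labelled replicates 1 and 2 were between the lowest and the highest control, and the mean difference of -2.18 (limma adjusted p = 0.67) became 0.11 without replicate 3, which held 2 reads. Rrp12, a factor in the processing and export of ribosomal subunits, was at 0, 12.23 and 2.31 in the controls versus 7.69, 5.33 and 0 in the CKO-labelled libraries, so 2525 reads in Zfp521fl/fl replicate 2 stood against 0 and 2 in the other controls. Nop14, a processome protein, was at 8.41, 0 and 0 in the controls versus 8.30, 8.07 and 5.32 in the CKO-labelled libraries. Utp20, another processome protein, had 1099 reads in CKO-labelled replicate 1 and none elsewhere.

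Factors of the large ribosomal subunit varied as widely. The products of Pes1, Bop1 and Wdr12 form 1 complex needed to mature the large subunit. Wdr12 was at 8.04, 10.76 and 3.16 in the controls versus 10.63, 11.00 and 11.91 in the CKO-labelled libraries (difference 3.86 ± 1.92, SE, limma unadjusted p = 0.070, adjusted p = 0.61). Zfp521fl/fl replicate 2 lay between CKO-labelled replicates 1 and 2. Pes1 was at 9.41, 0 and 11.19 in the controls versus 9.17, 8.35 and 0 in the CKO-labelled libraries. Bop1 had 5673 reads in CKO-labelled replicate 1, 3 reads in Zfp521fl/fl replicate 1 and none in the other 4 libraries. The Pes1 value minus the Wdr12 value was 1.37 and 8.03 in control replicates 1 and 3, compared with -1.46 and -2.65 in CKO-labelled replicates 1 and 2.

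Nip7, an assembly factor of the large subunit, was low in every control, with values of 3.25, 4.18 and 4.74 from 8, 9 and 13 reads. In the CKO-labelled libraries it was at 11.05, 9.56 and 3.42, from 13225, 2415 and 2 reads. The controls lay within 1.50 log2 units, the smallest range of the 14 genes that every library detected, and CKO-labelled replicates 1 and 2 lay above all of them. Its difference was 3.96 ± 2.59 (SE, limma adjusted p = 0.64), and 6.25 without CKO-labelled replicate 3 (adjusted p = 0.041). Gnl3, which encodes the nucleolar GTPase nucleostemin, was at 9.36, 7.79 and 9.66 in the controls versus 10.74, 11.32 and 7.71 in the CKO-labelled libraries. CKO-labelled replicate 3 lay just below every control and replicates 1 and 2 above (difference 0.99, limma adjusted p = 0.78).

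The other large subunit and helicase genes lacked reads in at least 1 control. Nop16, an assembly factor, was at 2.66, 0 and 10.53 in the controls versus 11.11, 9.02 and 5.89 in the CKO-labelled libraries. Rrs1, which helps to bring the 5S particle into the large subunit, was at 9.67, 2.26 and 0 in the controls versus 9.16, 4.75 and 6.11 in the CKO-labelled libraries. Ddx21, an RNA helicase of the nucleolus, was at 10.01, 0 and 8.97 in the controls versus 8.27, 9.63 and 6.99 in the CKO-labelled libraries. All 3 genes had groups that overlapped. Nle1, an assembly factor, had 253 and 2 reads in CKO-labelled replicates 1 and 2, and Nop2, an RNA methyltransferase, had 3016 in replicate 1, with none in the other libraries.

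Srm and Odc1, genes of polyamine synthesis, were near absent from the same control. Odc1, which encodes the rate-limiting ornithine decarboxylase, was at 8.65, 2.26 and 10.15 in the controls versus 9.98, 10.55 and 5.63 in the CKO-labelled libraries. Srm, which encodes spermidine synthase, was at 9.46, 2.26 and 12.11 in the controls versus 11.83, 10.30 and 10.51 in the CKO-labelled libraries. Each had 2 reads in Zfp521fl/fl replicate 2, and with that library left out the difference of Odc1 turned from 1.70 to -0.68. Limma adjusted p-values were 0.76 for Odc1 and 0.67 for Srm. Cad, which encodes the enzyme of the first steps of pyrimidine synthesis, had 3012 reads in CKO-labelled replicate 1 and none in the other 5.

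Most libraries of the same label differed in these genes about as much as libraries of different labels. For the 28 genes with reads in both CKO-labelled replicates 1 and 2, the median absolute difference between these libraries was 0.76 log2 units, compared with 1.04 for 12765 genes of the table. It was 2.70 and 3.04 between each of these libraries and replicate 3 of the same label. Between pairs of controls it was 1.50 to 5.66 over 15 to 19 genes, and between a control and a CKO-labelled library it was 1.76 to 4.53. For all genes the pairs of controls differed by 1.51 to 1.93. The pair with the largest value was Zfp521fl/fl replicates 2 and 3. The median SD within the controls was 2.97 log2 units over the 14 genes found in every library and 1.33 over the 3065 genes of this kind in the table, and within the CKO-labelled libraries it was 1.60 and 1.11. In CKO-labelled replicate 1, 15 of the 32 genes lay above every control and 0 below, in replicate 2 14 and 0, and in replicate 3 4 and 3. The shares of all genes were 51.0%, 39.5% and 14.7% above every control and 5.19%, 4.91% and 8.13% below. The counts of the 32, above as well as below every control, were therefore near the background. In replicate 2, those above every control include Nle1, which had 2 reads there.

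Summed over the 32 genes, the libraries fell into the order of some of their marker genes. The 32 took 1344, 3584 and 1526 RPM in the controls and 4476, 4162 and 1893 in the CKO-labelled libraries. CKO-labelled replicate 3 thus lay between the controls. The order of the 6 libraries stayed the same when any 1 of 31 genes was left out and changed without Srm, while without both Ncl and Npm1 Zfp521fl/fl replicate 3 lay above CKO-labelled replicate 3. In Zfp521fl/fl replicate 2, 8371 of the 26203 reads of the sum were Dkc1.

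The 12 neutrophil markers, of which 11 or 12 had reads in each library, ran in the reverse order. They took 15.2%, 12.7% and 14.0% of reads in the controls, compared with 0.036%, 1.46% and 12.9% in the CKO-labelled libraries. The 10 HSC markers ran in the same order as the 32 genes, with 54.2, 1415 and 109.9 RPM in the controls, compared with 1540, 1503 and 245.7 in the CKO-labelled libraries. That order rested on Ly6a, the gene of the sort marker Sca-1, which was 89.8% of the HSC sum in Zfp521fl/fl replicate 2 and 93.2% in CKO-labelled replicate 3. Without Ly6a the HSC sums were 50.7, 144 and 109.1 in the controls, compared with 1249, 1256 and 16.7 in the CKO-labelled libraries. Counted only over reads outside the neutrophil markers, the 32 genes took 1586, 4105 and 1774 RPM in the controls, compared with 4478, 4224 and 2173 in the CKO-labelled libraries, in the same order. The 12 markers are only a part of neutrophil RNA, so leaving out their reads does not take neutrophil RNA out of the sums. The part of neutrophil RNA in the sums and in the differences of single genes was not tested. Of 7 monocyte markers, 4 to 6 had reads in each library. Their sum ran from 1101 RPM in replicate 1 to 8255 in replicate 3, both CKO-labelled, and Lyz2 was 87.3% to 97.4% of it. Ccr2, a further monocyte marker with reads in all 6 libraries, was left out of the sum for values off the read scale. Its difference was -4.98 (limma adjusted p = 0.61). With Ccr2, 6 of 8 monocyte markers had a lower mean in the CKO-labelled libraries and 2 a higher one. The 4 erythroid markers ranged from 84.4 to 2697 RPM.

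**Figure D5:**
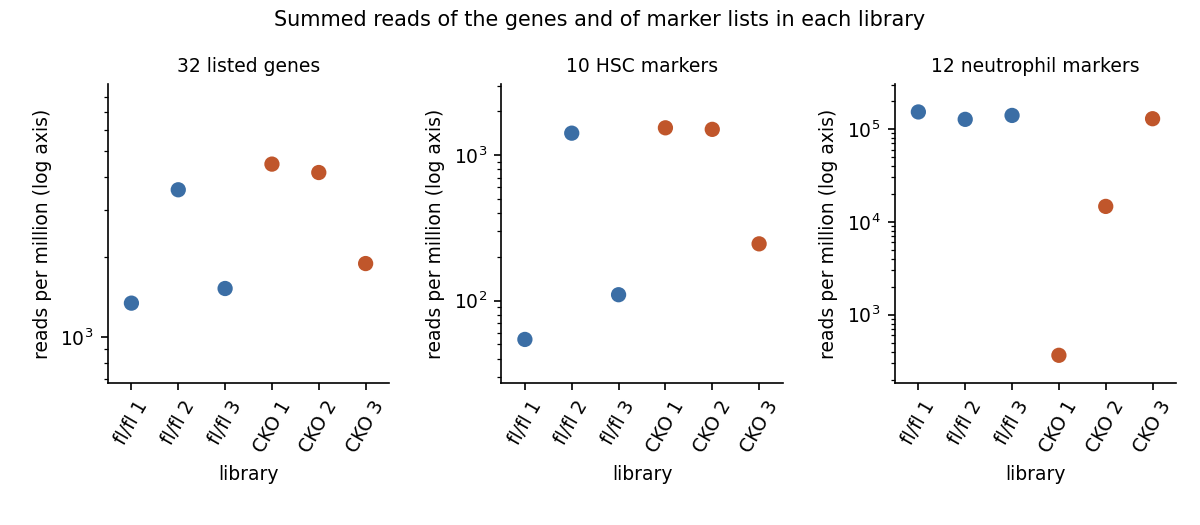
Summed reads as RPM (log axes, which differ between panels) of the 32 genes, of 10 HSC markers and of 12 neutrophil markers in each library, with controls in blue and CKO-labelled libraries in orange. The 32 genes and the HSC markers are highest in CKO 1, CKO 2 and fl/fl 2, and the neutrophil markers are lowest in CKO 1, at 0.036% of reads.

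Other genes of the same pathways gave no calls either with all 6 libraries. Of 108 further genes of ribosome synthesis, 103 were tested, and 86 of these (83.5%) had a higher mean in the CKO-labelled libraries, with a median difference of 2.32 log2 units, or 2.06 with absent genes at the floor. None passed the adjusted threshold (smallest limma adjusted p = 0.61), 12 (11.7%) had an unadjusted p under 0.05 as higher and 0 as lower, and the groups did not overlap for 18 (17.5%), all higher. The background shares were 5.09% and 7.17%. The 18 include Rrn3, Ltv1 and Ddx56, which had 2, 2 and 3 reads in CKO-labelled replicate 3, at or below the floor of 3 reads. Ltv1 had 3 reads in Zfp521fl/fl replicate 1. The floor was not used in this count or in its background, so separation of such genes is not shown. Without CKO-labelled replicate 3, where limma called 15.1% of all genes higher, it called 9 of 38 small subunit, 5 of 45 large subunit, 3 of 10 RNA polymerase I, 3 of 18 nucleotide and 1 of 11 polyamine genes, all higher, and 0 of the other lists. In the small subunit list with all libraries, 30 of 38 had a higher mean and 8 a lower one, and 6 of the higher genes had an unadjusted p under 0.05. Nol6, a processome protein, had no reads in the controls and was at 7.20, 9.57 and 12.50 in the CKO-labelled libraries (limma unadjusted p = 0.0024). Utp11, of the same complex, was at 1.64, 0 and 0 in the controls versus 9.60, 8.69 and 5.32 in the CKO-labelled libraries.

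In the large subunit list, 39 of 45 were higher and 6 lower, and 5 had an unadjusted p under 0.05. Rrp15, an assembly factor, was at 0, 2.74 and 3.16 in the controls versus 9.98, 8.47 and 9.95 in the CKO-labelled libraries, and Rpf1 at 6.15, 2.74 and 2.31 against 9.72, 9.01 and 12.54. In the RNA polymerase I list, 9 of 10 tested were higher, beside 73.6% of all genes tested. Of these 10 genes, 5 had no reads in any control. The median difference of the list was 2.15 log2 units. With absent genes at the floor it was 0.38, compared with 0.61 for all genes tested. Rrn3, the initiation factor that links the polymerase to its promoter, had no reads in the controls, compared with 1348, 474 and 2 reads in the CKO-labelled libraries, and Taf1c, of the promoter factor SL1, had none in the controls, compared with 1594, 174 and 0. In the list of further small nucleolar RNP genes, 8 of 10 were higher. Nop10, a box H/ACA protein, was at 11.60, 8.66 and 12.56 in the controls versus 12.61, 12.62 and 13.27 in the CKO-labelled libraries, so its groups were only just apart. Ruvbl1, an ATPase that helps to assemble these particles, was at 10.76, 0 and 0 in the controls versus 11.07, 11.06 and 0 in the CKO-labelled libraries.

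In the polyamine and MYC network lists the counts were more even. Of 11 further polyamine genes, 5 were higher and 6 lower, with a median of -0.79 and 0 calls. Azin1, which encodes an inhibitor of antizyme and so protects ornithine decarboxylase, was at 10.42, 11.23 and 12.17 in the controls versus 8.87, 9.59 and 0 in the CKO-labelled libraries. Its groups did not overlap (limma unadjusted p = 0.057, adjusted p = 0.61). Dohh, the hydroxylase that completes hypusine, had 0, 2 and 0 reads in the controls, compared with 5276, 1225 and 0 in the CKO-labelled libraries. Of 8 other genes of the MYC network, 5 were higher and 3 lower, with a median of 0.27. Mxi1, which encodes a MAX partner that opposes MYC, was at 5.94, 0 and 0 in the controls versus 7.84, 6.57 and 0 in the CKO-labelled libraries, and Mlxip, which encodes the MLX partner MondoA, was at 10.32, 2.74 and 9.61 against 9.81, 9.24 and 0. Of 18 nucleotide synthesis genes, 15 were higher, with a median of 3.01. Tyms, which encodes thymidylate synthase, was at 3.54, 2.74 and 0 in the controls versus 11.35, 8.27 and 10.20 in the CKO-labelled libraries (limma unadjusted p = 0.0060, adjusted p = 0.61), and Pfas, of purine synthesis, at 5.08, 0 and 0 against 7.92, 8.36 and 8.37.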

How the data were processed

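The labels' protocols describe RNA from sorted HSCs purified with a silica-column kit and standard Illumina libraries. Bowtie, DESeq2 1.26.0 and mm9 appear in the submitters' processing notes, with no role stated. No counter, annotation or filter is given in the sources used here. The table the authors deposited is named FPKM, but its values are on a log2 scale. Undoing the log and taking away 1 gives whole multiples of 1 step per library, so the values are log2(read count / factor + 1). At a tolerance of 0.001 read, 99.7% of values above 0 were whole. The exceptions, 213 values in 70 genes, lie in a block of 75 rows with 0 of the 32 genes. These 70 genes were left out of library totals, and no gene of the block entered summed reads.

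The test was limma 3.58.1 (R 4.3.3, lmFit, eBayes with trend) on the deposited values, with genotype only, all 6 libraries, two-sided, over 16436 genes with a mean normalized count of at least 1. It was tried on simulated counts with a fixed spread, lower than that of these libraries, so that trial does not show how the test performs here. Expected detection at the shallowest depth was computed from each gene's reads. Intervals and floors cover counting error only. The 32 genes and the lists were chosen with earlier results of these data known. The genes given in every library are those fixed by role, those with reads in all 6 libraries, those with groups apart and the 5 with the smallest p; the rest follow by role. In each further list, the 2 genes with the smallest p are named. Alternatives were other pseudocounts, filters, scalings, weights, voom, a replicate block and leaving out each library. Centring on shared genes was chosen after seeing the data. Promoter coordinates are of GRCm38.p6, another build than that of the table, and genes were matched by symbol. Sequences are from RefSeq.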

Additional observations from a re-analysis of the deposited data

How the results depend on the processing

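Over 21 alternatives, 0 of all genes and 0 of the 32 passed an adjusted p of 0.05 in limma by most settings. The count over all genes was 17 with quantile normalization, 1660 with weights per library and 161 with voom, and 0 to 2509 when 1 library was left out, and it was above 0 there only without CKO-labelled replicate 3. The count of the 32 was 0 to 2 when 1 library was left out. The median of the 32 ran from 1.62 to 3.70 log2 units when 1 library was left out, and from 1.62 to 3.72 in all. Each of these lay less than 2.46 from the main value of 2.86, where 2.46 is the pooled SD of the medians of single libraries. That limit is wide and says little on stability. The medians of single libraries ran from 2.26 to 6.02 in the controls and from 4.16 to 9.19 in the CKO-labelled libraries. The median of all genes was 0.22 with quantile normalization, 0.91 with a total of 1000000 per library and 1.13 with centring on shared genes, where the 32 had 1.93, 2.02 and 2.36. Of 654 values of single genes, 18 changed sign, in 8 genes, and the cause was not tested. With weights per library Ncl was at -0.17, Pes1 at 0.54 and Rrp12 at 0.95. With voom Pes1 was at 0.69 and Rrp12 at 0.066. Centring put Ncl at -0.37. With 1 library left out in turn, Ncl ran from -0.56 to 0.89, Pes1 from -4.46 to 1.89, Rrp12 from -2.93 to 3.18, Odc1 from -0.68 to 3.27, Ddx21 from -1.19 to 3.81, Bop1 from -0.69 to 4.23, Dkc1 from -3.38 to 0.066 and Wdr43 from -3.39 to 0.11. The replicate block gave 0 calls and the same medians. Deviations of same-numbered libraries correlated at 0.03, -0.04 and 0.01, and not every library correlated best with its own number. These values show no sign of pairing by number. With 3 libraries per group they cannot settle whether the samples were paired.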
